A study of Canis lupus familiaris with 6 samples.

Results

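The RASSF family (Ras association domain family) was followed through 9 genes, RASSF1 to RASSF9, of 15947 genes with a probe set of their own. A gene was taken through the probe set to which the platform annotation gives its symbol and no other. Where several existed the set was to be chosen by its mean log2 value over the 6 arrays, but each of the 9 genes had only 1, so brightness decided nothing. The family was picked with earlier results of these arrays known, among them the large TGFb effect on RASSF6, and the values of RASSF6 under TGFb are therefore a description and not independent evidence.

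RASSF proteins carry a Ras association domain, which in several of them binds the GTP-loaded form of Ras or a related GTPase. RASSF1 to RASSF6 also end in a SARAH domain, a short helix through which they pair with the MST kinases STK3 and STK4 at the head of the Hippo pathway. Hippo kinases restrain the transcriptional coactivators YAP1 and WWTR1 (TAZ). RASSF7, RASSF8 and RASSF9 have their Ras association domain near the N terminus and lack the SARAH domain. Several SARAH-bearing members, RASSF1 above all, are known as tumour suppressors that human cancers silence by DNA methylation of the promoter, which is the process that 5-AZA blocks.

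Total RNA of MDCK (Madin-Darby canine kidney) cells, which grow as an epithelial sheet and were kept in DMEM with 10% FBS, was hybridised to 6 single-colour Affymetrix arrays. Of these, 1 array (AZA) came from cells given 5 ng/ml TGFb (transforming growth factor beta) for 30 days. They were sampled after 72 hours of 5-AZA. For 1 more (WD), cells were sampled 30 days after the same course of TGFb was withdrawn. Another 2 (TGFb) came from cells kept for 30 days in 5 ng/ml TGFb with subculture every few days, and 2 (untreated) from cells without it. All 6 arrays share the parental line. The labels leave unsaid if TGFb stayed on during 5-AZA, if 5-AZA was the ribose or the deoxyribose compound, and if replicate arrays are of different cultures, so the p-values measure a spread between arrays that may be technical only.

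Values are log2 expression values per probe set as deposited. The lower quartile of all probe sets was 3.50 to 3.57 and the array medians were 4.97 to 5.01, with no background level given, so the limit of detection is unknown. The labelled states were checked on markers. CDH1 (E-cadherin) had 6.98 on the AZA array, 11.34 on the WD array, 6.25 and 7.24 on the TGFb arrays, and 11.64 and 11.43 on the untreated arrays. ZEB1, a repressor of CDH1, ran the other way, with 8.74 (AZA), 3.39 (WD), 8.79 and 8.50 (TGFb), and 4.21 and 3.08 (untreated). The other epithelial and mesenchymal markers were mixed for TGFb against untreated. EPCAM (log2 difference −3.32), ZEB2 (3.83) and SPARC (6.23) were called. KRT8 (−0.61), KRT18 (−0.42) and VIM (0.38) moved less and were not called. Of the kidney markers, PAX8 had 5.46 (AZA), 5.22 (WD), 6.41 and 6.50 (TGFb), and 5.91 and 5.82 (untreated). CDH16 read 4.58 to 5.05 and PAX2 read 4.91 to 5.58, and none of these markers was called in any comparison. Of the leukocyte markers, PTPRC read 2.83 to 3.05 and CD3E 2.50 to 3.01, but CD14 read 4.76 to 5.10, as bright as CDH16.

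**Figure D1:**
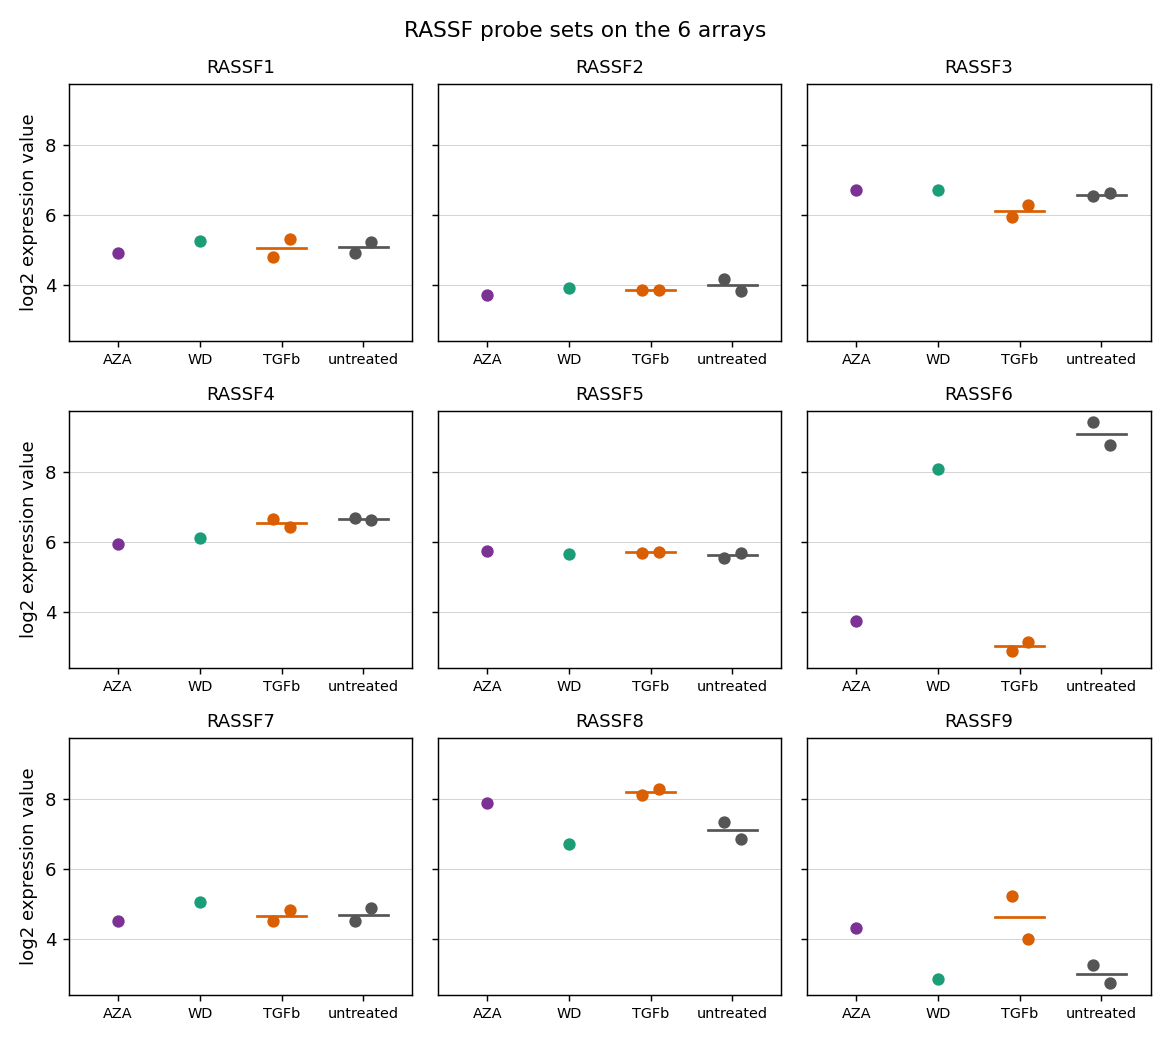
Log2 expression value (y axis) of each RASSF probe set on the 6 arrays. Points are arrays, grouped as AZA, WD, TGFb and untreated, and bars are the means of the groups with 2 arrays. RASSF6 lies between 2.88 and 3.73 on the AZA and TGFb arrays and between 8.09 and 9.41 on the WD and untreated arrays, whereas RASSF5 spans 0.21 over all 6.

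Whether 30 days of TGFb changed the family was asked first. RASSF6, a SARAH-bearing member that binds the MST kinases and is known to promote apoptosis, was lower, and it was the single member of 9 past the threshold. RASSF8 and RASSF9, both without a SARAH domain, lay higher on both TGFb arrays but did not pass. The other 6 members, RASSF1 to RASSF5 and RASSF7, differed by less than 0.5 on the log2 scale. Calls were made with limma at a Benjamini-Hochberg adjusted p under 0.05 over all 32293 probe sets, of which 1.64% were called in this comparison. The median difference of the 9 members was −0.03, beside −0.01 over all probe sets.

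RASSF6 had 2.88 and 3.14 on the TGFb arrays, against 9.41 and 8.77 on the untreated arrays. The groups lay far apart, and both TGFb values lay below the lower quartile of their arrays. The log2 difference was −6.08 ± 0.26 (standard error of the fit; adjusted p = 0.00381). No fold is given, since the TGFb values were not shown to be above background. In RNA of whole cultures, fewer cells with RASSF6 and less RASSF6 RNA per cell cannot be told apart. Without TGFb replicate 1 the difference was −5.95, and 1 residual degree of freedom was left. The RASSF6 call was lost in that fit, as was every other call of the comparison.

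RASSF8, a junction-associated protein that binds the ASPP family of p53 regulators, had 8.11 and 8.29 on the TGFb arrays, against 7.34 and 6.86 on the untreated arrays. The groups did not overlap. The difference was 1.10 ± 0.21 with a 95% interval of 0.56 to 1.65 and an adjusted p of 0.0987. It passed when fewer features were tested, with an adjusted p of 0.0421 once the dimmer 50% of probe sets was dropped and 0.0171 over named genes only. The 95% intervals given here are per gene and not adjusted for the number of probe sets.

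RASSF9, first described as a partner of the peptide-amidating enzyme PAM and found on recycling endosomes, had 5.24 and 4.01 on the TGFb arrays, against 3.26 and 2.74 on the untreated arrays. Both TGFb arrays were higher, but they differed from each other by more than the untreated pair did, with means of 4.62 ± 0.87 under TGFb and 3.00 ± 0.37 in untreated cells (SD, n = 2 each). The difference was 1.63 ± 0.44 (95% interval 0.50 to 2.75, adjusted p = 0.193). It was 1.01 without TGFb replicate 1 and 2.24 without TGFb replicate 2, and passed over named genes only (adjusted p = 0.0438). The untreated values lay below the lower quartile of their arrays.

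RASSF3, which is known to stabilise p53 by way of MDM2, had 5.93 and 6.28 on the TGFb arrays, against 6.54 and 6.61 on the untreated arrays. The groups did not overlap, and the difference of −0.47 ± 0.18 did not pass (adjusted p = 0.324). In all, 4 of the 9 members had groups that did not overlap, beside 46.1% of all probe sets.

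RASSF1, whose A isoform binds microtubules and MST kinases, had 4.80 and 5.30 on the TGFb arrays, against 4.92 and 5.22 on the untreated arrays, and the TGFb pair enclosed the untreated pair. Its difference was −0.02 with a 95% interval of −0.61 to 0.57. The isoforms of RASSF1 cannot be told apart with this probe set. RASSF5 (NORE1/RAPL), a Rap and Ras effector best known in lymphocyte adhesion, had 5.67 and 5.72 under TGFb, against 5.54 and 5.68 untreated, and a difference of 0.08 (−0.30 to 0.46).

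RASSF2, a binder of K-Ras and of MST kinases, had 3.85 and 3.84 on the TGFb arrays, against 4.17 and 3.82 on the untreated arrays, a difference of −0.15 (−0.60 to 0.31). RASSF4, a close relative of RASSF2, had 6.64 and 6.42 under TGFb, against 6.68 and 6.63 untreated, a difference of −0.12 (−0.53 to 0.28). RASSF7, a protein of the mitotic spindle poles and microtubules, had 4.52 and 4.82 under TGFb, against 4.51 and 4.89 untreated, a difference of −0.03 (−0.56 to 0.50). In these 3 members the groups overlapped, and the smallest adjusted p among them was 0.776.

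**Figure D2:**
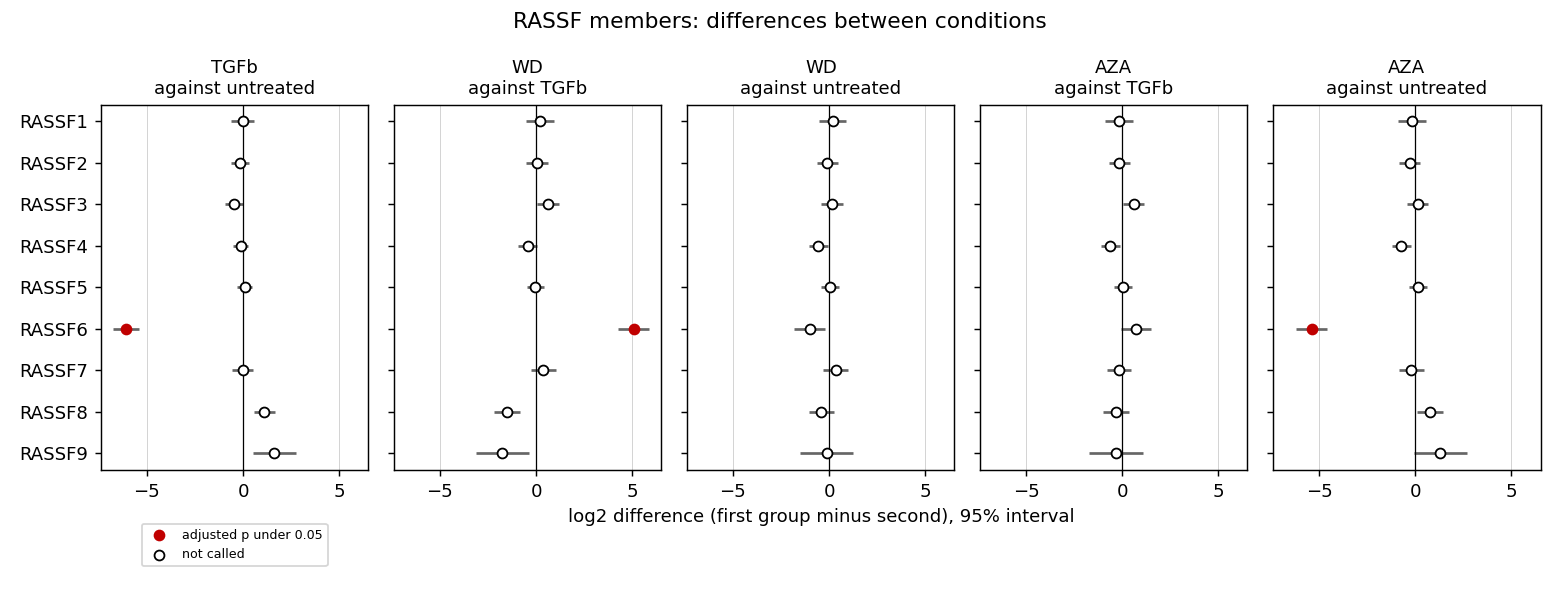
Log2 difference (x axis, first group minus second) of the 9 RASSF members in 5 comparisons, with 95% intervals as lines. Filled red points had an adjusted p under 0.05 and open points did not. RASSF6 alone is filled, at −6.08 for TGFb against untreated, 5.08 for WD against TGFb and −5.36 for AZA against untreated.

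The WD array asked whether the family moved once TGFb had been absent for 30 days. RASSF6 was higher than under TGFb, and again no other member passed. Its value was 8.09 on the WD array, against 2.88 and 3.14 on the TGFb arrays, a difference of 5.08 ± 0.31 (limma adjusted p = 0.0144). Of all probe sets 0.839% were called in this comparison. The call was lost without TGFb replicate 1 (difference 4.95, adjusted p = 0.119) and without TGFb replicate 2 (5.21, adjusted p = 0.0833).

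RASSF8 had 6.70 on the WD array, against 8.11 and 8.29 on the TGFb arrays. The difference was −1.50 ± 0.26 (95% interval −2.17 to −0.83, adjusted p = 0.106), and it passed with the dimmer 50% dropped (adjusted p = 0.0412) and over named genes only (0.0145). RASSF9 had 2.87 on the WD array, against 5.24 and 4.01 on the TGFb arrays, a difference of −1.76 ± 0.54 (−3.14 to −0.37, adjusted p = 0.27). Both lay below both TGFb arrays. RASSF3 had 6.72 on the WD array, above 5.93 and 6.28 on the TGFb arrays, with a difference of 0.61 ± 0.22 (adjusted p = 0.328).

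RASSF4 had 6.10 on the WD array, below 6.64 and 6.42 on the TGFb arrays (−0.43 ± 0.19, adjusted p = 0.432). RASSF7 had 5.05, above 4.52 and 4.82 (0.38 ± 0.25, adjusted p = 0.602). RASSF1 (5.25), RASSF2 (3.90) and RASSF5 (5.66) differed from the TGFb means by 0.20, 0.05 and −0.03. In all, 8 of 9 members lay outside the range of the TGFb pair, as did 75% of all probe sets, so a position outside that range is the usual case for a single array.

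The WD array was then set against untreated cells, to ask which members still differed. No member passed and none of the 32293 probe sets did, while 3154 had an unadjusted p under 0.05 (limma, 0% called). RASSF6 had 8.09 on the WD array, against 9.41 and 8.77 on the untreated arrays, and so lay below both. Its difference was −1.0 ± 0.31, with a 95% interval of −1.81 to −0.20 and an adjusted p of 0.441. It was −0.69 without untreated replicate 1 and −1.32 without untreated replicate 2.

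RASSF8 had 6.70 on the WD array, below 7.34 and 6.86 on the untreated arrays (−0.40 ± 0.26, adjusted p = 0.688), and the difference was −0.64 without untreated replicate 2 and −0.16 without untreated replicate 1. RASSF9, at 2.87 on the WD array, lay within 3.26 and 2.74 of the untreated arrays (−0.13, 95% interval −1.51 to 1.25). RASSF4 had 6.10 on the WD array, against 6.68 and 6.63 on the untreated arrays (−0.55 ± 0.19, adjusted p = 0.474). The other members, RASSF1, RASSF2, RASSF3, RASSF5 and RASSF7, differed by −0.09 to 0.35. Of the 9 members 6 lay outside the untreated range, beside 71.1% of all probe sets.

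The AZA array asked whether members of this family rose when DNA methylation was blocked in TGFb-treated cells. None passed against TGFb, where 1.04% of all probe sets were called. The differences of the members ran from −0.61 to 0.72 with a median of −0.14, beside −0.02 over all probe sets, and the smallest adjusted p was 0.273. The 95% intervals of RASSF3 (0.05 to 1.16), RASSF6 (−0.08 to 1.52) and RASSF9 (−1.70 to 1.07) took in a 2-fold rise, and those of the other 6 members ended below it, among them RASSF1 (−0.86 to 0.58), RASSF2 (−0.70 to 0.42) and RASSF5 (−0.41 to 0.52). The error behind these intervals came from the TGFb and untreated pairs. RASSF2 (3.70 on the AZA array) read near the lower quartile of that array (3.57), and the limit of detection is unknown. RASSF1 (4.91) and RASSF7 (4.51) read below the median of that array (5.00) and below the leukocyte marker CD14 on it (5.03). The intervals of RASSF1, RASSF2 and RASSF7 therefore do not exclude a 2-fold rise in their RNA. Promoter methylation was not measured here.

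RASSF6 had 3.73 on the AZA array, above 2.88 and 3.14 on the TGFb arrays. Its difference was 0.72 ± 0.31 (−0.08 to 1.52, adjusted p = 0.416). RASSF3 had 6.71 on the AZA array, above 5.93 and 6.28 (0.60 ± 0.22, adjusted p = 0.33). RASSF4 had 5.92, below 6.64 and 6.42 (−0.61 ± 0.19, adjusted p = 0.273).

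RASSF8 had 7.87 on the AZA array, below 8.11 and 8.29 on the TGFb arrays (−0.33 ± 0.26, adjusted p = 0.665). RASSF9, at 4.31, lay between 5.24 and 4.01 (−0.32 ± 0.54, adjusted p = 0.866), and its difference turned to 0.30 without TGFb replicate 1 and was −0.93 without TGFb replicate 2. RASSF1 had 4.91, RASSF2 3.70, RASSF5 5.75 and RASSF7 4.51 on the AZA array, within 0.17 of the TGFb means. In all, 7 of 9 members lay outside the TGFb pair, beside 74.9% of all probe sets. The endothelial marker PECAM1 rose on this array (6.57, against 3.24 and 3.26 under TGFb; 3.32 ± 0.20, adjusted p = 0.00602), while the other endothelial markers CDH5 (4.74) and KDR (3.84) were not called, and the part of this in the values of the members was not tested.

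Against untreated cells, the AZA array kept RASSF6 low. RASSF6 had 3.73 on the AZA array, against 9.41 and 8.77 on the untreated arrays, a difference of −5.36 ± 0.31 (limma adjusted p = 0.00347), in a comparison where 3.65% of all probe sets were called. The call held without each of the replicates in turn, with adjusted p-values of 0.0188 to 0.0213. RASSF8 had 7.87 on the AZA array, against 7.34 and 6.86 on the untreated arrays (0.77 ± 0.26, adjusted p = 0.22), and RASSF9 had 4.31, against 3.26 and 2.74 (1.31 ± 0.54, adjusted p = 0.304). RASSF4 had 5.92, against 6.68 and 6.63 (−0.73 ± 0.19, adjusted p = 0.138). All 9 members lay outside the untreated range, beside 74.8% of all probe sets. The comparisons share arrays, so their values stand side by side and are not independent of each other.

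From low to high, RASSF6 ran from TGFb (mean 3.01 ± 0.18) through AZA (3.73) and WD (8.09) to untreated (9.09 ± 0.45; SD, n = 2 for the means). Of the neighbours in that order, AZA and TGFb did not differ past the threshold, nor did WD and untreated, and WD against AZA was not tested. RASSF8 ran from WD (6.70) through untreated (7.10 ± 0.34) and AZA (7.87) to TGFb (8.20 ± 0.13), and RASSF9 from WD (2.87) through untreated and AZA (4.31) to TGFb. No neighbours in these orders differed past the threshold. RASSF10, the other family member without a SARAH domain, lies outside the 9 and was looked up after its values were seen. It read 4.46 on the AZA array, 4.57 on the WD array, 4.26 and 4.35 on the TGFb arrays, and 4.23 and 4.53 on the untreated arrays.

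The position of RASSF6 was examined through the genes beside it in the order of the RefSeq assembly UU_Cfam_GSD_1.0, of which no coordinate is given because the array's own build is not stated. The nearest measured genes were AFM and AFP, which encode serum proteins of the albumin family, on one side, and the chemokine genes CXCL8 and PPBP on the other. AFM read 2.69 to 2.98, AFP 3.56 to 4.02 and PPBP 4.65 to 5.12 over the 6 arrays, and none of them was called. CXCL8, the next gene to RASSF6, had 9.66 on the AZA array, 5.32 on the WD array, 8.23 and 7.58 on the TGFb arrays, and 5.18 and 6.85 on the untreated arrays.

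CXCL8 was thus high where RASSF6 was low. Its difference was 1.89 for TGFb against untreated (adjusted p = 0.234), −2.58 for WD against TGFb (0.226) and 3.64 for AZA against untreated (0.069), and none passed. Over the 36 nearest measured neighbours of the 9 members, 4 for each, none was called in any of the 5 comparisons, which called 0% to 3.65% of all probe sets, and the median TGFb difference was −0.05. RASSF1 lies in a cluster with ZMYND10, NPRL2, TUSC2 and HYAL2, a block of tumour suppressor candidates in the human genome. Their TGFb differences were −0.08, −0.19, −0.09 and −0.27, and for AZA against TGFb they were −0.12, −0.19, −0.27 and 0.17.

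**Figure D3:**
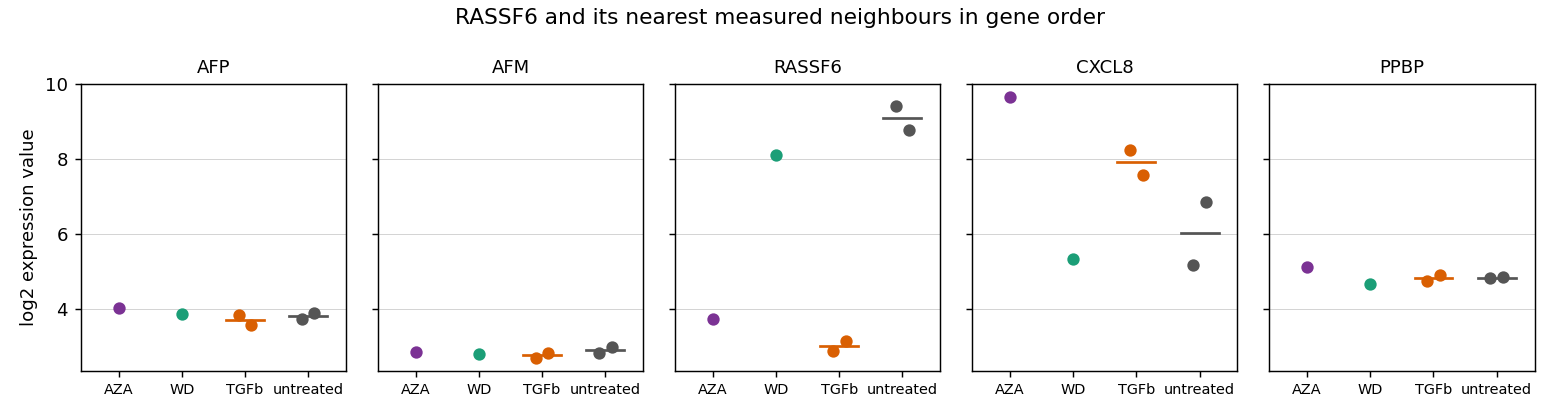
Log2 expression value (y axis) of RASSF6 and of the 2 nearest measured genes on each side of it in gene order, on the AZA, WD, TGFb and untreated arrays (points, with bars for the means of 2 arrays). AFP, AFM and PPBP stay within 0.5 over the 6 arrays, RASSF6 drops to 2.88 and 3.14 under TGFb, and CXCL8 reaches 9.66 on the AZA array.

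Likeness of pattern was measured as Pearson's r over the 6 arrays, which are not independent points because they form 4 conditions, among 3360 other genes whose values spanned at least 1 log2 unit. RASSF6 was most like RASEF (r = 0.999), which encodes a Rab-like GTPase with an EF hand, TXNIP (0.998), an inhibitor of thioredoxin, and SPINT2 (0.996), a Kunitz-type serine protease inhibitor. RASEF had 3.73 on the AZA array, 8.04 on the WD array, 3.29 and 3.21 on the TGFb arrays, and 9.13 and 8.80 on the untreated arrays. RASSF8 was most like APOOL (0.995), CEP85L (0.993) and EVA1C (0.988). RASSF9 was most like ROBO2 (0.991), a Slit receptor, the proprotein convertase FURIN (0.980) and CBLN4 (0.979). The TGFb values of ROBO2 lay far apart, at 7.06 and 5.28, which follows from its choice by r over these same arrays.

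The genes around the family were counted by role. Among 19 measured Hippo kinases and upstream adaptors none was called for TGFb against untreated, WD against TGFb, WD against untreated or AZA against TGFb. For AZA against untreated FRMD6, a FERM protein upstream of the kinases, fell to 8.61 on the AZA array, against 9.82 and 9.84 on the untreated arrays (−1.22 ± 0.18, adjusted p = 0.037). It was already low under TGFb alone, at 8.90 and 8.77 (−1.0 ± 0.15 against untreated, adjusted p = 0.0542), and AZA differed from TGFb by −0.22 (adjusted p = 0.671). The MST kinases that bind RASSF proteins differed by 0.12 ± 0.21 (STK3) and −0.45 ± 0.15 (STK4, adjusted p = 0.281) for TGFb against untreated. LATS1 and LATS2, the kinases that phosphorylate YAP1, differed by −0.25 ± 0.18 and −0.12 ± 0.25.

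None of 7 measured Hippo effectors was called in any of the 5 comparisons. YAP1 had 8.54 and 8.24 under TGFb, against 8.66 and 8.53 untreated (−0.21 ± 0.17), and WWTR1 had 9.24 and 9.34, against 10.40 and 9.80 (−0.81 ± 0.24, adjusted p = 0.215). Of 21 measured genes of a published YAP/TAZ target signature, 2 rose and 1 fell under TGFb, in a comparison that called 1.64% of all probe sets, with a list median of −0.09 beside −0.01 over all. CCDC80, a matrix protein, rose by 1.64 ± 0.18 (adjusted p = 0.0296) and TGFB2, a TGFb ligand, by 1.52 ± 0.16 (adjusted p = 0.0263), and CRIM1, a membrane protein that binds BMPs, fell by 1.59 ± 0.22 (difference −1.59; adjusted p = 0.0479).

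On the WD array CCDC80 (−2.03 ± 0.22) and TGFB2 (−2.83 ± 0.19) fell against TGFb, and none of the 21 rose. For AZA against TGFb no target was called (list median 0.39). For AZA against untreated, where 3.65% of all probe sets were called, 4 rose and none fell, namely CCDC80 (2.55), TGFB2 (2.18), the receptor kinase AXL (1.78 ± 0.25, adjusted p = 0.0318) and the ectonucleotidase NT5E (1.66 ± 0.19, adjusted p = 0.0199). ANKRD1, a muscle ankyrin repeat protein much used as a YAP reporter, was singled out after its values were seen. It had 8.30 and 8.16 on the TGFb arrays, against 6.47 and 3.83 on the untreated arrays, a difference of 3.08 ± 0.84 that did not pass (adjusted p = 0.194). The untreated pair was far apart.

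No member was called in any of the 5 comparisons among 11 measured Ras and Rap GTPases or among 12 measured partners of RASSF proteins. Their medians for TGFb against untreated were 0.10 and 0.02. For AZA against TGFb they were 0.07 and −0.28, beside −0.02 over all probe sets. For AZA against untreated they were 0.16 and −0.40, beside −0.03 over all. The lists for the pathway were chosen, like the family, with earlier results of these arrays known, and their counts describe these arrays only.

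**Figure D4:**
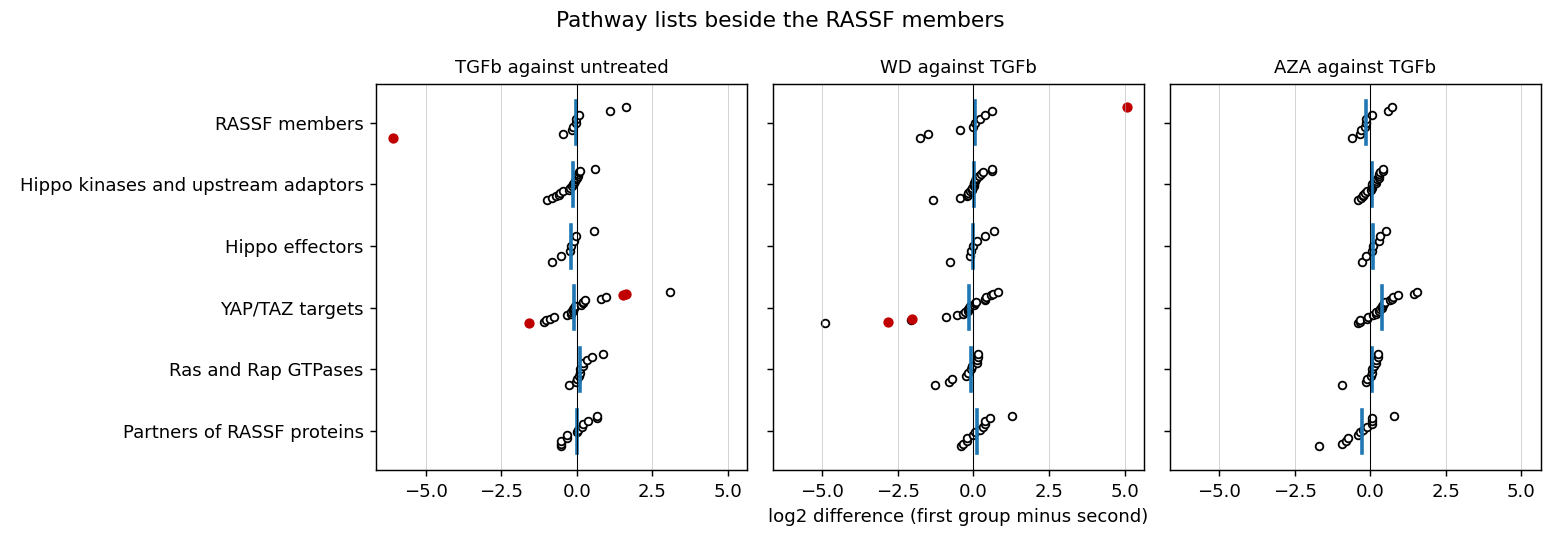
Log2 difference (x axis, first group minus second) of every measured gene of 5 pathway lists and of the 9 RASSF members, for TGFb against untreated, WD against TGFb and AZA against TGFb. Red points had an adjusted p under 0.05, open points did not, and blue bars are list medians. RASSF6 is the point farthest from 0 in the TGFb panel (−6.08) and in the WD panel (5.08), and no point of the AZA panel is red.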

How the data were processed

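The deposited table holds a log2 value per probe set and array for 32293 probe sets. Affymetrix Expression Console 1.2 produced them, per the submitters' processing notes. For the summary method, background correction, log base and build, the answer is not given in the sources used. Deposited values reach 13.1, the range of log2 values of a scanner signal, so they were read as log2, and another base would multiply every difference by a constant. The platform annotation gives 1 symbol for 16545 probe sets, and 15820 of these were matched by entrez identifier to RefSeq symbols.

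A model of 4 group means over the 6 arrays was fitted by limma 3.58.1 (lmFit and eBayes, R 4.3.3) without a filter, and had 2 residual and 3.10 prior degrees of freedom. Its error for the lone AZA and WD arrays is taken from the TGFb and untreated pairs, which these data cannot check. Members and lists were chosen with earlier results of these data known. All 9 members are named. List genes are named if called, at most 5 per list and comparison, with STK3, STK4, LATS1, LATS2, YAP1 and WWTR1 always named. Of the 12 alternatives, the closing section names the drop of dimmer probe sets, named genes only, the block and the left-out replicates. The others let the error prior vary with brightness or resist outlying errors. They also gave the arrays equal distributions or equal medians, or took the mean over probe sets sharing a symbol. In each of these RASSF6 stayed the only member called for TGFb against untreated, with 483 to 635 probe sets called.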

Additional observations from a re-analysis of the deposited data

How the results depend on the processing

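The count of members called for TGFb against untreated was 1 in the fit as reported, 2 with the dimmer 50% of probe sets dropped, 3 with named genes only, 2 with the replicate number as a block, and 0 to 1 when a replicate was left out. Probe sets called in that comparison numbered 531 as reported, 1001 with the dimmer 50% dropped, 1228 with named genes only and 0 to 129 with a replicate left out. For WD against TGFb the members called were 1 as reported, 2 with the dimmer 50% dropped, 2 with named genes only and 0 to 1 with a replicate left out, and the probe sets called 271, 649, 907 and 0 to 97. For AZA against TGFb the probe sets called were 337 as reported, 110 with the dimmer 50% dropped, 682 with named genes only and 0 to 137 with a replicate left out, and no member was called under any of 11 alternatives. For AZA against untreated 1178 were called, and 346 to 435 with a replicate left out. For WD against untreated named genes only gave 58 calls, 9 higher and 49 lower, where the fit as reported gave 0. The settings other than the block test fewer features or fewer arrays, the block was fitted to the TGFb and untreated arrays alone with a further term, and the cause of the moves was not tested. The replicate numbers in the titles do not pair the arrays by any label, and the deviations of same-numbered arrays correlated at r = 0.0988 over all probe sets. With that block RASSF9 was called for TGFb against untreated (1.63 ± 0.23, adjusted p = 0.0448), and RASSF6 was called with it too. The RASSF6 difference for TGFb against untreated ran from −6.40 to −5.76 over 12 alternatives. No called difference of a member changed sign, while uncalled ones near 0 did, among them RASSF9 for AZA against TGFb. RASSF2, RASSF7 and RASSF9 lie in the dimmer 50% of probe sets and have no value in that setting. The number of arrays, and the lack of a background level for values as low as those of RASSF6 under TGFb, limit the precision.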
